A study of Mus musculus with 12 samples.

Results

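Connexins are the proteins of gap junctions, and the 8 connexin genes described here are Gjb2, Gjb6, Gja1, Gjb1, Gjc1, Gjc3, Gja4 and Gja5. They were taken by name from the 37432 rows of the expression table, and each name occurred once. Their levels were followed through 3 turns of the mouse cochlea, apical, middle and basal, in both genotypes. Expression was measured as FPKM, read fragments divided by the length of the transcript and by the number of fragments mapped in the library. All but Gja5 reached 1 FPKM in at least 2 libraries, so 7 members were tested. Wild-type males were compared with Gjb2 35delG/35delG males at P14, and each combination of genotype and turn had 2 libraries, 12 in all. The homozygous mice were raised from male embryonic stem cells of almost pure C57BL/6J background by tetraploid complementation, delivered by caesarean section and fostered by ICR dams, whereas the wild-type mice were bought. Genotype and origin therefore cannot be told apart in any comparison below. How many mice, cochleae or stem cell lines stand behind a library is not given in the sources used here, and a p-value measures only the spread between the libraries.

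A gap junction is a cluster of channels that joins the cytoplasm of neighbouring cells. Connexins assemble in rings, and a ring in one membrane docks to a ring in the next to let ions and small metabolites pass. In the cochlea Gjb2 and Gjb6 form the network of supporting cells, fibrocytes and strial cells that is linked to potassium recycling, and mutations of Gjb2 are a common cause of inherited deafness. Gja1 is a connexin of astrocytes, osteoblasts and many fibroblasts. Gjb1 is made by Schwann cells and oligodendrocytes, Gjc3 by myelinating glia, Gjc1 by smooth muscle and some neurons, and Gja4 and Gja5 by vascular, mainly arterial, endothelium.

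The mutation lies near the start of the Gjb2 reading frame, which is why the first bases are shown. In GRCm38, to which mm10 corresponds, Gjb2 (ENSMUSG00000046352.7) spans chr14:57098600-57104702 on the minus strand, and its coding sequence of 681 bases, stop included, is held by the last of 2 exons. The first 60 coding bases, at chr14:57100690-57100749, read as follows in GENCODE M21, with the run of G that ends at coding position 35 in capitals.
Gjb2: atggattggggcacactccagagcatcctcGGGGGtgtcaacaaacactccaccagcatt
That run holds 5 G. Removal of 1 of them from the reference sequence moved the first in-frame stop from codon 227 to codon 34. FPKM counts reads of the transcript whether or not it encodes a whole protein, so the Gjb2 values below are levels of RNA.

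Gjb6 (ENSMUSG00000040055.9, chr14:57123303-57133611, minus strand) lies 18600 bases away from Gjb2 on the same strand. The remaining members are Gja1 (ENSMUSG00000050953.10, chr10:56377330-56390415, plus), Gjb1 (ENSMUSG00000047797.14, chrX:101376378-101385629, plus), Gjc1 (ENSMUSG00000034520.14, chr11:102799579-102819700, minus), Gjc3 (ENSMUSG00000056966.7, chr5:137953461-137963098, minus), Gja4 (ENSMUSG00000050234.7, chr4:127311421-127314039, minus) and Gja5 (ENSMUSG00000057123.14, chr3:96904693-97077416, plus). Whether reads were counted by strand is not given in the sources used here. The span of Gja5 overlaps Gpr89 on the opposite strand, and no row overlaps any of the other 7 members.

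RefSeq start sites of GRCm38.p6 were matched for 7 of the 8 members. The promoters below run from 250 bases before the start to 50 after it and belong to the genes whose levels carry the results, the epithelial pair and the myelin pair. Both strands were searched for the GC box GGGCGG, the TATA box TATAAA and the core ACAAAG of SOX factor sites, and matches are in capitals. Gjb2 is at chr14:57104653-57104952, Gjb6 at chr14:57133562-57133861 and Gjc3 at chr5:137963049-137963348, all minus strand. For Gjb1, which has 4 start sites, the window at chrX:101383482-101383781, plus strand, is shown. It was picked because it was the only one of the 10 member promoters with all 3 motifs. The other Gjb1 windows held no GC box and no TATA box, and only that at chrX:101376126-101376425 held a SOX core.
Gjb2: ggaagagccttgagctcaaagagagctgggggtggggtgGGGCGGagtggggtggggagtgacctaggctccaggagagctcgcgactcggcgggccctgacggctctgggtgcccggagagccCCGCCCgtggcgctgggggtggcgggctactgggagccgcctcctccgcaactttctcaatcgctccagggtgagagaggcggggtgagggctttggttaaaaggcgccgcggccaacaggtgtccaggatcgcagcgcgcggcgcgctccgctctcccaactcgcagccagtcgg
Gjb6: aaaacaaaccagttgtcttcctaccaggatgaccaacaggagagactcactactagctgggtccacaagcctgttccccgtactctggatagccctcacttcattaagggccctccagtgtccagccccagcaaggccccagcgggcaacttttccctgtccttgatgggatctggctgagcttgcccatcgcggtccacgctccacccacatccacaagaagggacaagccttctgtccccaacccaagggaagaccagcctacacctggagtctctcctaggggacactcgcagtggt
Gjb1: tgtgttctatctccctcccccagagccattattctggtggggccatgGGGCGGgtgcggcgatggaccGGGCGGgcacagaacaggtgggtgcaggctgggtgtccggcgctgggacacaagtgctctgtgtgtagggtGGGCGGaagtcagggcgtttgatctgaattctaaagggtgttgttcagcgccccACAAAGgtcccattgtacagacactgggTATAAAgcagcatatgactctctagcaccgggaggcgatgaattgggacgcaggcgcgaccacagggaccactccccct
Gjc3: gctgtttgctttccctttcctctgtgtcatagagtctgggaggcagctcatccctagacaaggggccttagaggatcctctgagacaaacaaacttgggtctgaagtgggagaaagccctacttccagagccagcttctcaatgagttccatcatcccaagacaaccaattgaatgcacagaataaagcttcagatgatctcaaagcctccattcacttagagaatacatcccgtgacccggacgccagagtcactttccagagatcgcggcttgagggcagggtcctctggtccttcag
The Gjb2 window held 2 GC boxes and 70.0% G and C, against a median of 52.7% over all 32851 promoters of that length. No match of the 3 motifs was found in the Gjb6 and Gjc3 windows. Of all promoters, 35.7% held a GC box, 13.6% a TATA box and 18.7% the SOX core. These matches are letters in a window and were not tested as binding sites.

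Levels are given as FPKM divided by a scaling factor per library, called scaled FPKM, and since FPKM is per transcript length they can be compared between genes. Libraries are named below by genotype, turn and replicate number. Libraries of the same turn differed in their levels of tissue marker genes. Mog and Mobp, genes of the myelin of oligodendrocytes, and the astrocyte gene Gfap were high in 4 libraries, wild-type middle 1, wild-type basal 2 and both homozygous basal ones. Mog was 69.0 to 211 scaled FPKM there and at most 1.95 in the other 8. Of the 11 supporting cell genes, 4 were under 1 scaled FPKM in both homozygous basal libraries, Otog, Otogl, Tectb and Hes5. Hes5 was under 1 in all 12 libraries, and Tectb also in both wild-type middle ones and in wild-type basal 1. Sox2 was 7.88 and 9.34 in the homozygous basal libraries, beside 7.95 and 11.9 in wild-type basal ones, and Prox1 was 11.99 and 3.84, beside 0.28 and 1.01. The lateral wall gene Otos was at 4.43 in homozygous basal 2, against 848 in homozygous basal 1 and at least 1743 in the other 10 libraries. Spiral ganglion genes were almost missing from wild-type basal 1, where Nefl was at 1.70 against 182 in wild-type basal 2. Neuron and myelin genes were high both in the wild-type middle and in the homozygous basal libraries, at the sums given with Gjb1 and Gjc3 below. The turn of a library is taken here from its label alone, so a difference in where the turns were cut, or in the labels, cannot be told apart from a difference between turns, and this holds for every comparison of turns. In bulk tissue, fewer cells of a type and less RNA per cell cannot be told apart.

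Gjb2 and Gjb6 were the most abundant members. By mean level Gjb2 ranked 143 and Gjb6 ranked 161 of all 37432 rows, and one or the other was the highest member in every library. Gjb2 supplied a median of 48.0% and Gjb6 of 39.3% of the summed FPKM of the 8 genes. Gjc3 followed at a median share of 4.20%, with a range of 1.30% to 16.0%. Gjb1 and Gja1 had median shares of 1.29% and 0.983% and reached 14.3% and 16.5%. Gjc1 stayed between 0.354% and 1.02%, Gja4 at 0.425% or less and Gja5 at 0.0576% or less.

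**Figure D1:**
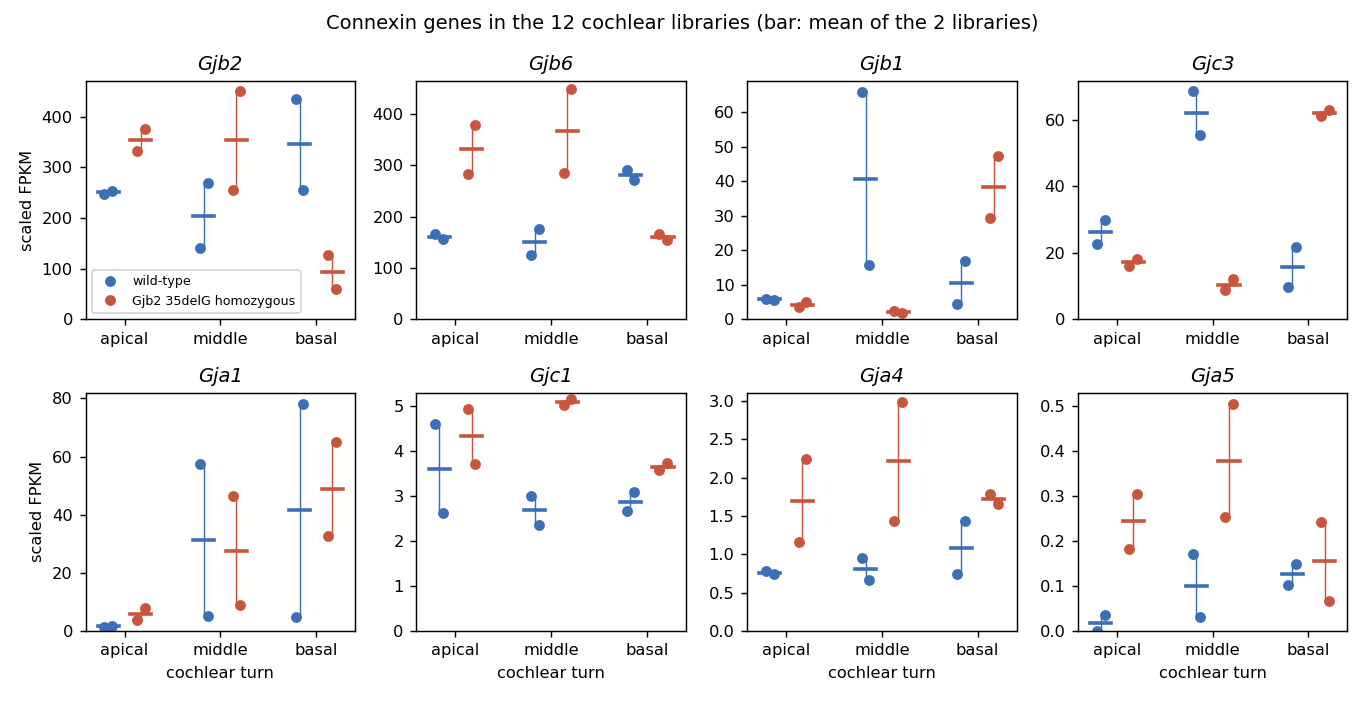
Scaled FPKM (vertical axes, linear from 0) of the 8 connexin genes by cochlear turn (horizontal axes) in wild-type (blue) and Gjb2 35delG homozygous (red) libraries. Points are the 2 libraries of a group and bars their mean. Gjb6 crosses over between the middle and basal turns, Gjb1 and Gjc3 cross in the opposite direction, and the 2 libraries of a group differ widely for Gja1.

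Which connexins differ between genotypes, and whether that depends on the turn, was tested with limma over all 16215 genes, and calls needed a fold change over 2 and an adjusted p below 0.01. No member was called in the apical turn, where 0.179% of all genes were, and 1 member passed an unadjusted p of 0.05, as did 16.4% of all genes. In the middle turn again no member was called (0.179% of all genes), and 5 passed an unadjusted p of 0.05 (25.4% of all genes). In the basal turn Gjc3 was the 1 member called (4.29% of all genes), and 4 passed an unadjusted p of 0.05 (32.4%). For the mean of the 3 turns no member was called (0.376% of all genes) and 3 passed an unadjusted p of 0.05 (18.6%). The turns were therefore compared directly. The genotype difference itself differed between the basal and middle turns for 3 members, Gjb6, Gjb1 and Gjc3, where 8.91% of all genes were called. Between the middle and apical turns no member was called, with 0% of all genes called, and 2 members were under an unadjusted p of 0.05 (8.05% of all genes). Between the basal and apical turns no member was called either (0.796% of all genes), with 4 under an unadjusted p of 0.05 (28.4%). The libraries of the genotypes did not overlap for 6, 5 and 6 of the 7 members from apex to base, beside 59%, 59.5% and 54% of all genes tested.

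**Figure D2:**
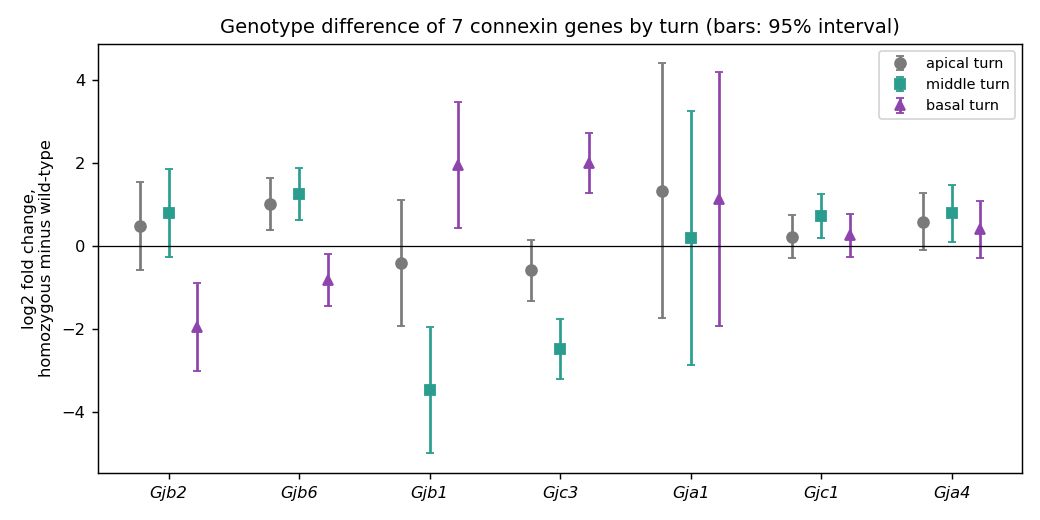
Log2 fold change, homozygous minus wild-type, on the log2(scaled FPKM + 1) scale (vertical axis) of the 7 tested connexin genes in the apical (grey), middle (green) and basal (purple) turns. Points are limma estimates and bars 95% intervals. Gjb6 lies above 0 at the apex and in the middle and under 0 at the base, Gjb1 and Gjc3 do the opposite between the middle and basal turns, and the intervals of Gja1 cover 0 in all 3 turns.

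Gjb2, the mutated gene, was detected at a high level in every homozygous library. Apical levels of Gjb2 were 248 and 254 scaled FPKM for wild-type libraries, against 332 and 376 for homozygous ones. Middle turn levels were 140 and 268 for wild-type, against 256 and 451 for homozygous libraries. Basal levels were 434 and 256 for wild-type, against 126 and 58.6 for homozygous libraries. The homozygous values were thus the higher ones in the apical turn and the lower ones in the basal turn, and the genotypes overlapped in the middle turn. From apex to base the log2 differences were 0.49 ± 0.47 (SE, n = 2 per group), 0.81 ± 0.47 and -1.94 ± 0.47, with limma adjusted p = 0.658, 0.319 and 0.0238, none of them called. With any one library left out, the basal log2 difference lay between -2.49 and -1.38. By group mean, homozygous apical, homozygous middle and wild-type basal libraries came first at 354, 353 and 345, and each overlapped the next. Homozygous basal libraries came last at a mean of 92.5 and did not overlap wild-type middle, the next group up at 204.

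Gjb6, which forms mixed channels with Gjb2, had a smaller standard error than Gjb2 in each contrast. Its apical levels were 166 and 155 scaled FPKM for wild-type libraries, against 283 and 379 for homozygous ones. In the middle turn wild-type libraries had 124 and 176, and homozygous ones 285 and 448. At the base wild-type libraries had 292 and 271, and homozygous ones 166 and 154. Homozygous libraries were above wild-type ones at the apex and in the middle, and below at the base, without overlap in any turn, a pattern that 6.32% of all genes tested shared. The log2 differences were 1.03 ± 0.28 (SE, n = 2 per group), 1.27 ± 0.28 and -0.81 ± 0.28 in that order of turns, with limma adjusted p = 0.129, 0.045 and 0.0759. The basal minus middle difference of these effects was -2.08 ± 0.39 (adjusted p = 0.00747 by limma) and was called. That call was lost without any one of 11 libraries, all but homozygous middle 1, at differences of -2.32 to -1.75 and adjusted p of 0.0102 to 0.0305. The mean of the turns was 0.49 ± 0.16, which was not called (adjusted p = 0.145 by limma).

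The ratio of the 2 partners had the same direction of difference in each turn. In wild-type apical libraries the Gjb2 to Gjb6 ratio was 1.50 and 1.63, followed by 1.12 and 1.52 in middle and 1.49 and 0.943 in basal ones. In homozygous apical libraries it was 1.17 and 0.992, followed by 0.898 and 1.01 in middle and 0.763 and 0.380 in basal ones. Within each of the 3 turns, both homozygous libraries lay below both wild-type ones. How often ratios of other gene pairs do so in these libraries was not examined. On the log2 scale the 6 wild-type libraries had a ratio of 0.43 ± 0.31 (SD) and the 6 homozygous ones of -0.29 ± 0.58 (SD), a difference of -0.71, or 1.64-fold lower. An exact permutation test of genotypes within turns, two-sided, gave p = 0.00926, the smallest it can give. The test treats libraries of different turns as independent. Whether the 3 turns of a replicate came from the same mice is not given in the sources used here. If they did, this p-value is too small. By turn, from apex to base, the log2 difference was -0.54, -0.46 and -1.14. With any one library left out it lay between -0.88 and -0.54, the smaller value without homozygous basal 2. The ratio was chosen with the levels of both genes known, and within a library the scaling cancels in it. Tissue content does not cancel in this way. The lowest ratios of each genotype were those of the libraries with high Gfap. These were wild-type middle 1, wild-type basal 2 and both homozygous basal ones. The part of tissue content in the ratio was not tested. Gjb2 exceeded Gjb6 in 5 of 6 wild-type and 2 of 6 homozygous libraries.

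**Figure D3:**
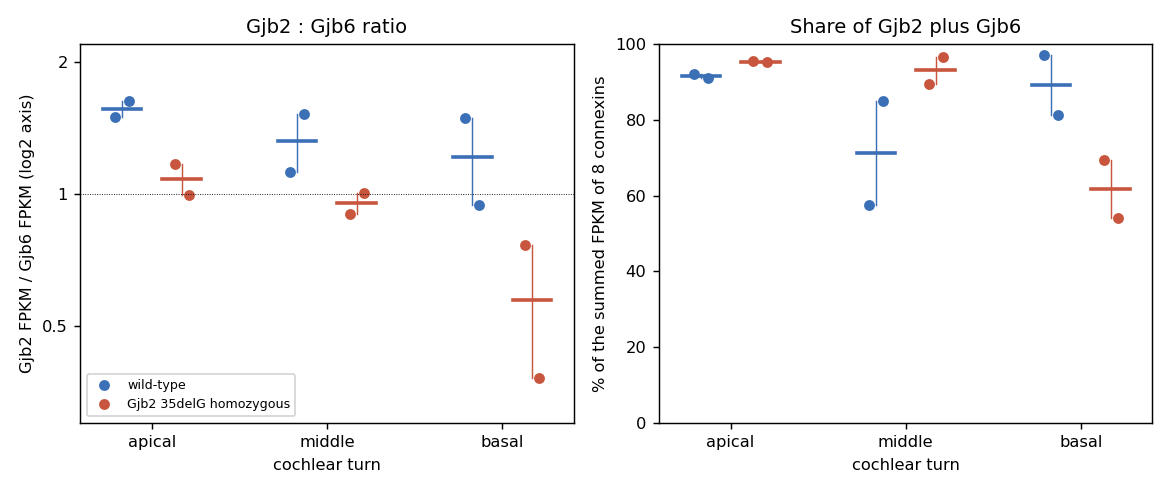
Left, ratio of Gjb2 FPKM to Gjb6 FPKM (log2 axis, dotted line at 1) by cochlear turn. Right, share of Gjb2 plus Gjb6 in the summed FPKM of the 8 connexin genes (percent, axis from 0 to 100). Points are libraries, wild-type blue and homozygous red, and bars are means of the 2 libraries. Both homozygous ratios lie below both wild-type ratios in each turn, whereas the share differs in direction between turns.

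The share of Gjb2 plus Gjb6 in the 8 genes did not follow one direction. Wild-type apical libraries had 92.1% and 90.9%, against 95.4% and 95.3% for homozygous ones. For the middle turn the wild-type shares were 57.4% and 84.9%, against 89.4% and 96.6%. For the basal turn they were 97.0% and 81.3%, against 69.4% and 54.1%. Averaged over turns the difference was -0.56 percentage points (two-sided exact permutation p = 0.972). The summed level of the 8 genes differed by 0.17 on the log2 scale (two-sided exact permutation p = 0.528).

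Markers of the cells that carry Gjb2 and Gjb6 also differed between the libraries. The summed supporting cell list of 11 genes was 1115 to 1285 scaled FPKM in wild-type apical and 1420 to 2119 in homozygous apical libraries. Its middle turn sums were 352 to 444 for wild-type against 707 to 961 for homozygous libraries, and its basal sums 257 to 506 against 104 to 137. Most of the sum was Epyc, at 802 and 958 for wild-type apical libraries against 1497 and 988 for homozygous ones, and the single genes did not all follow the sum. Of the 10 tested, 3 had a positive and 7 a negative log2 difference at the apex, 6 and 4 in the middle and 2 and 8 at the base, with medians of -0.21, 1.07 and -1.30. The list of 8 spiral ligament fibrocyte genes was 1650 to 2342 in homozygous basal libraries and 6327 or more in every other library. The strial list of 8 genes ranged from 317 to 1849, and the strial genes Dct and Kcne1 were at 5.59 or less and 0.43 or less in the wild-type apical and middle libraries and in wild-type basal 1. Dct was 158 to 586 in the homozygous libraries other than basal 2. The part of these cells in the Gjb2 and Gjb6 differences was not tested. The genes most like Gjb2 over the 12 libraries, on the log2 scale, were Car14, a membrane carbonic anhydrase (Pearson r = 0.97, Spearman rho = 0.85), and Ormdl3 (r = 0.97, rho = 0.90). For Gjb6 they were Nat8f1 (r = 0.95, rho = 0.94) and Mdfi (r = 0.95, rho = 0.82). Gjb2 and Gjb6 themselves had r = 0.73 and rho = 0.90. These are descriptions over libraries that share genotype, turn and tissue content.

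Gjb1, the connexin of Schwann cells and oligodendrocytes, ranged from 1.80 to 65.9 scaled FPKM over the 12 libraries. Wild-type apical libraries held 5.92 and 5.68 scaled FPKM, and homozygous ones 3.39 and 5.03. Wild-type middle libraries held 65.9 and 15.7, and homozygous ones 2.25 and 1.80. Wild-type basal libraries held 4.45 and 16.7, and homozygous ones 29.4 and 47.3. The homozygous libraries were therefore the low ones in the apical and middle turns and the high ones in the basal turn, without overlap. For the middle and basal turns the log2 differences were -3.47 ± 0.67 (SE, n = 2 per group) and 1.96 ± 0.67, with limma adjusted p = 0.0376 and 0.0743, and neither was called. The basal minus middle difference of the effects was 5.43 ± 0.95 (adjusted p = 0.00549 by limma) and was called. It was lost without any one of 10 libraries, all but wild-type middle 2 and wild-type basal 2, at differences of 4.44 to 5.77 and adjusted p of 0.0111 to 0.0184.

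Gjc3, a connexin of myelinating glia, had the smallest adjusted p of the 7 members for a dependence of the genotype difference on the turn. At the apex wild-type libraries had 22.7 and 29.9 scaled FPKM, and homozygous ones 16.0 and 18.2. In the middle, wild-type libraries had 68.6 and 55.4, and homozygous ones 8.70 and 12.1. At the base wild-type libraries had 9.82 and 21.6, and homozygous ones 61.3 and 62.8. The genotypes did not overlap in any turn, with the same order of signs as for Gjb1, a pattern that 9.4% of all genes tested shared. The level rose by 2.01 ± 0.32 on the log2 scale (SE, n = 2 per group) in the basal turn (adjusted p = 0.00746 by limma), a 4.03-fold change. In the middle turn the difference was -2.47 ± 0.32 (adjusted p = 0.0138 by limma), just outside the threshold. The basal call was lost without any one of 11 libraries, all but wild-type basal 2, at differences of 1.47 to 2.03 and adjusted p of 0.0111 to 0.0328. The basal minus middle difference of 4.49 ± 0.45 (adjusted p = 0.00158 by limma) remained called without each of the 12 libraries, at 3.94 to 5.02. By group mean, homozygous basal and wild-type middle libraries stood together at the top, at 62.1 and 62.0, and were followed without overlap by wild-type apical libraries at 26.3.

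Most genes of the Schwann cell and myelin list moved beside both. The 12 Schwann cell and myelin genes summed to 6695 and 21066 scaled FPKM in wild-type middle and 2321 to 2903 in homozygous middle libraries. Their basal sums were 2238 and 7429 for wild-type, against 10637 and 15599 for homozygous libraries. Of the 12, 2 were called lower in the middle turn (0.179% of all genes called) and 3 called higher in the basal turn (4.29%). In the basal minus middle difference 7 were called higher (8.91%). By sign, 1 of the 12 was higher in the middle turn and 2 were lower in the basal turn, S100b in both cases among them. S100b was 711 and 557 in wild-type middle, against 1436 and 2025 in homozygous middle libraries. The gene most like Gjb1 was Mbp, myelin basic protein, at r = 0.99 and rho = 1 over the 12 libraries. Mbp was 11823 in wild-type middle 1 and 6600 in homozygous basal 2, the libraries with the 2 highest Gjb1 values, and 142 in homozygous middle 2, the one with the lowest. Gjc3 was most like Wrb (r = 0.97, rho = 0.95) and Cabyr (r = 0.97, rho = 0.94), and r between Gjb1 and Gjc3 was 0.90. The 10 neuron genes summed to 2331 and 2959 in wild-type middle against 559 and 87.4 in homozygous middle libraries. Their basal sums were 45.7 and 938 in wild-type against 3954 and 3953 in homozygous libraries. The part of nerve and myelin content in the Gjb1 and Gjc3 differences was not tested.

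**Figure D4:**
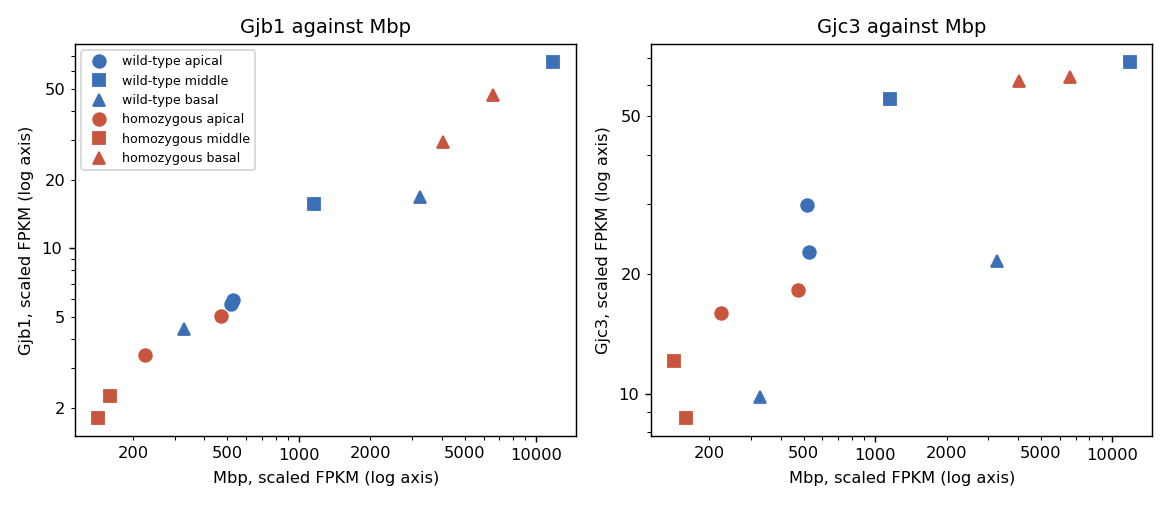
Scaled FPKM of Gjb1 against the myelin gene Mbp (left) and of Gjc3 against Mbp (right), all on log axes. Each point is a library, blue wild-type and red homozygous, with circles for apical, squares for middle and triangles for basal turns. Gjb1 rises with Mbp over the whole range from 142 to 11823, and for Gjc3 wild-type basal 2 stands apart with a Gjc3 of 21.6 at a Mbp of 3250.

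Gjb1 and Gjc3 differed from each other in the libraries with oligodendrocyte genes. Wild-type middle 1 and 2 had a Gjb1 of 65.9 and 15.7 but a Gjc3 of 68.6 and 55.4, while Mog was 211 in the first and 1.95 in the second. Without wild-type middle 1 and wild-type basal 2, a setting chosen after seeing the data, the basal log2 difference of Gjb1 was 2.82 in place of 1.96. Wild-type basal 2 had the higher Gjb1 of its pair and both homozygous basal libraries were kept, so a larger difference was fixed by the choice and the value is a description only.

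Gja1 differed more within groups than between genotypes in the middle and basal turns. At the apex it was 1.31 and 1.82 scaled FPKM for wild-type, against 3.75 and 7.83 for homozygous libraries. Middle turn levels were 57.3 and 5.12 for wild-type, against 46.4 and 8.84 for homozygous libraries. Basal ones were 4.85 and 78.2 for wild-type, against 32.7 and 65.0 for homozygous libraries. The groups overlapped in the middle and basal turns. The log2 differences of 1.34, 0.19 and 1.13 had an SE of 1.35 each, and the 95% interval in the basal turn ran from -1.93 to 4.19, so a change of several-fold in either direction was within the error. Gja1 exceeded 10 scaled FPKM in 5 libraries, the 4 with Mog above 10 and homozygous middle 1. In the latter Gfap was at 1.80, and the bone genes Bglap and Col1a1 were at 790 and 758. The 5 astrocyte genes, a list compiled after seeing the values, summed to 195 to 519 in the 4 libraries with Mog and to 38.1 or less elsewhere. Most of the sum in those 4 libraries was Gfap and Aqp4. Slc1a2 was also highest there, but Aldh1l1 and Bcan did not follow. Aldh1l1 was 6.06 in wild-type basal 2, against 7.56 in homozygous apical 2. Bcan was 10.2 in wild-type basal 2, against 16.7 in homozygous middle 2. The 8 osteoblast genes summed to 4251 in homozygous middle 1, to 5202 in wild-type basal 2 and to 2759 or less elsewhere. Over the 12 libraries the genes most like Gja1 were Mgp, a matrix protein of cartilage and vessels (r = 0.97, rho = 0.97), and Gdf10 (r = 0.97, rho = 0.94). The part of these tissues in Gja1 was not tested.

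**Figure D5:**
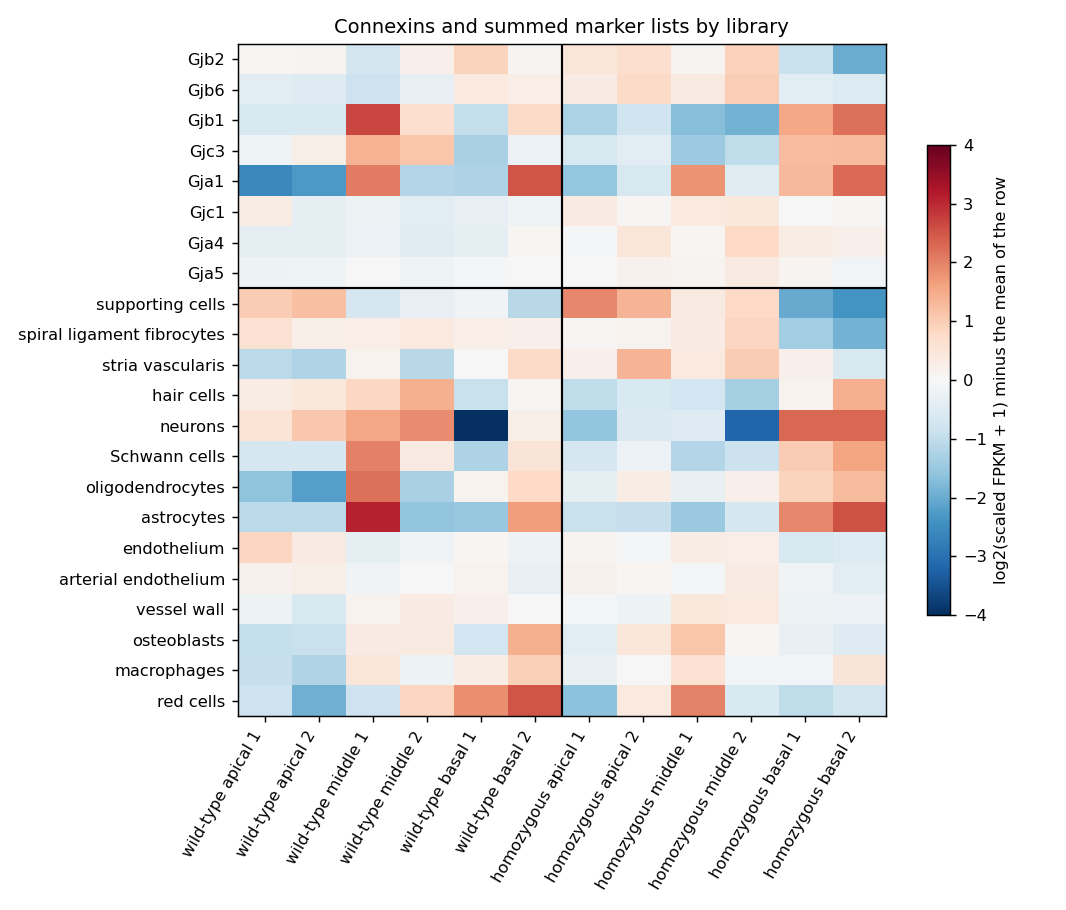
Log2(scaled FPKM + 1) minus the mean of the row, as a colour from -4 (blue) to 4 (red), for the 8 connexin genes (above the line) and the summed marker lists (below it). Columns are the 12 libraries, with wild-type left and homozygous right of the vertical line. Gja1 is high in the 4 libraries with a high astrocyte sum and in homozygous middle 1, and Gjb1 and Gjc3 are highest in wild-type middle 1 and the homozygous basal libraries, which have the 3 highest Schwann cell sums. Gjc3 is low in wild-type basal 2, whose sum of 7429 is the next highest.

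Gjc1 was low and even. It lay between 2.35 and 5.15 scaled FPKM in all 12 libraries. Its middle turn levels were 3.0 and 2.35 for wild-type, against 5.01 and 5.15 for homozygous libraries, without overlap. The apical levels of 4.60 and 2.61 for wild-type overlapped those of 4.93 and 3.71 for homozygous libraries. At the base wild-type libraries had 2.65 and 3.08 and homozygous ones 3.57 and 3.73. The log2 difference was 0.73 ± 0.23 in the middle turn (SE, n = 2 per group, adjusted p = 0.0957 by limma) and 0.41 ± 0.13 as the mean of the turns (adjusted p = 0.142 by limma), and neither was called. The most similar genes were Spag4 (r = 0.94, rho = 0.90) and P3h3 (r = 0.92, rho = 0.94).

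Gja4, a connexin of arterial endothelium, was near the detection filter. Apical levels were 0.77 and 0.74 scaled FPKM for wild-type, against 1.16 and 2.24 for homozygous libraries. Middle turn levels were 0.95 and 0.66, against 1.43 and 2.99. Basal levels were 0.74 and 1.43, against 1.79 and 1.66. The homozygous libraries lay above the wild-type ones without overlap in each of the 3 turns, as for 1.53% of all genes tested. Across turns the genotypes overlapped, from 1.16 upwards in homozygous and up to 1.43 in wild-type libraries. Since 6 of the 7 libraries above 1 scaled FPKM were homozygous, the gene passed the filter mainly through the group in which it was higher. The mean over turns differed by 0.60 ± 0.17 on the log2(scaled FPKM + 1) scale, which understates a change at this level (adjusted p = 0.111 by limma, not called). Gja5, the other arterial connexin, did not exceed 0.505 scaled FPKM in any library, was listed at 0 in wild-type apical 1 and was not tested. Of the vascular lists, the 8 endothelial genes summed to 71.2 to 204 and the 6 arterial genes to 26.2 to 46.5 over the 12 libraries. In the mean of the turns 0 of 8 and 0 of 6 of them were called by limma, where 0.376% of all genes were. Of them, 4 and 2 were under an unadjusted p of 0.05 (18.6% of all genes). The 8 vessel wall genes, of which 7 were tested, summed to 49.6 to 104. In the same contrast 0 were called and 3 had an unadjusted p under 0.05, beside those same shares of all genes. The genes most like Gja4 were Chrm1 (r = 0.94, rho = 0.93) and Stub1 (r = 0.92, rho = 0.83). Kif26a and Sost came next, and Myh11, the smooth muscle myosin, had rank 5 (r = 0.90, rho = 0.92). The part of vessel content in Gja4 was not tested.

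Differences between turns within a genotype were of the same kind. In wild-type mice no member was called between middle and apical, basal and apical or basal and middle turns, where 0.0863%, 0.0863% and 0% of all genes were called by limma, and 2, 3 and 3 members had an unadjusted p under 0.05 (19.9%, 20.3% and 15.2% of all genes). In homozygous mice no member was called between the middle and apical turns (0% of all genes), and none had an unadjusted p under 0.05 (2.65% of all genes). Between the homozygous basal and apical turns Gjc3 was called (4.06% of all genes), with a rise of 1.80 ± 0.32 on the log2 scale. Between the homozygous basal and middle turns Gjb1 and Gjc3 were called (4.66% of all genes), with rises of 3.67 ± 0.67 and 2.48 ± 0.32. The first call was lost without any one library other than the 2 wild-type basal ones. Both later calls were lost without any one of the 8 libraries of the apical turns of either genotype or the homozygous middle and basal turns. Gjb2 and Gjb6 had homozygous basal minus middle differences of -1.97 ± 0.47 and -1.15 ± 0.28, with limma adjusted p of 0.0224 and 0.0232, which were not called.

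Connexins beyond the 8 were scarce. Of the other 12 mouse connexin genes 2 were tested, and the 8 members made up 90.0% to 99.9% of the summed FPKM of all 20 genes in a library. Gjd2, the connexin of electrical synapses, was 11.5 and 9.05 scaled FPKM for wild-type middle libraries, against 1.42 and 0.19 for homozygous ones. For wild-type basal libraries it was 0 and 2.50, against 11.8 and 7.75 for homozygous ones. Its basal minus middle difference of 5.22 ± 0.78 was called (adjusted p = 0.00369 by limma), where 8.91% of all genes were called. Of the 3 pannexins, channel proteins of similar fold, none was called by limma in a single turn. In the basal turn 3 had an unadjusted p under 0.05 (32.4% of all genes). They differed in direction, at 1.13 for Panx1, 2.84 for Panx2 and -2.17 for Panx3 on the log2 scale. Panx2 was called in the basal minus middle difference (4.73 ± 0.90, adjusted p = 0.00747 by limma). Of 13 partner genes of gap junctions tested, 1 was called in the basal turn (4.29% of all genes). It was Dbn1, the actin-binding drebrin (log2 difference 2.06 ± 0.31, adjusted p = 0.00659 by limma). Dbn1 was also called higher in the basal minus middle difference, and the caveolin Cav1 and the cadherin Cdh1 were called lower there, at -2.01 ± 0.38 and -1.40 ± 0.28. Over the 7 tested members the median log2 difference was 0.49, 0.73 and 0.41 from apex to base. Over all genes tested it was -0.03, 0.04 and -0.02. The member medians are the values of single genes, Gjb2, Gjc1 and Gja4 in that order, and none of those was called. In each turn 5 members were positive and 2 negative, the latter being Gjb2 and Gjb6 at the base.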

How the data were processed

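RNA was extracted from cochleae cut into 3 turns, and 12 libraries of paired 150-base reads were made. Per the paper's methods and the submitters' processing notes, the authors cleaned reads with fastp 0.20.0, aligned them to mm10 with STAR 2.7.3a, kept unique alignments and computed FPKM with StringTie 2.0. Since no whole-read steps were found in the deposited FPKM, depth and counting error are unknown, and the annotation version is not given in the sources used here. Each library was scaled by a median-of-ratios factor (0.917 to 1.06) taken over 11552 genes that reached 1 FPKM throughout. Of 37432 genes, the 16215 that reached 1 FPKM in 2 libraries were fitted on log2(scaled FPKM + 1) with limma 3.58.1 in R 4.3.3, 1 mean for each of 6 groups and a variance trend (6 residual and 2.78 prior degrees of freedom). Tests were two-sided with Benjamini-Hochberg adjustment over all genes, and calls needed a fold change over 2 at an adjusted p below 0.01. Only the Gjb2 to Gjb6 ratio, the share and the sum of the 8 genes were tested by exact permutation of genotypes within turns. Both limma and the permutation treated the 12 libraries as independent. The members, the marker lists and the tests were chosen with earlier results of these data known. Named genes are the 8 members, the 5 genes of highest Pearson r with each (the leading ones are given), members of the partner lists that were called, and marker genes beside the results. The remaining connexins, pannexins and partners were counted from lists written by hand. Simulated data of this design were used to test the fit. Alternatives were other pseudocounts, filters, scalings, weights, blocks and thresholds, the libraries of 1 comparison alone, and each library left out. Coordinates are those of the deposited table, sequences come from GENCODE M21 and RefSeq, and figures were drawn with matplotlib 3.10.9. Some genes of the lists are not reported here.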

Additional observations from a re-analysis of the deposited data

Results flagged for a closer look

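For 3 connexin genes the genotype difference in the basal turn differed from that in the middle turn by the limma test of the difference itself. On the log2 scale it was -2.08 for Gjb6, 5.43 for Gjb1 and 4.49 for Gjc3, with adjusted p of 0.00747, 0.00549 and 0.00158. Both homozygous libraries lay above the wild-type ones in the middle turn and below them in the basal turn for Gjb6, and the opposite way for Gjb1 and Gjc3. Of all 16215 genes tested, 1445 were called in this difference. Turns are taken from the labels, and wild-type middle and homozygous basal libraries shared high neuron and myelin genes, so differences in dissection or labelling cannot be told apart from differences between turns.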

How the results depend on the processing

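Depth is unknown, and with 2 libraries per group a call rests on a spread estimated from 12 libraries. No log2 difference of a member with an unadjusted p under 0.05 in a turn, in the mean of the turns or in the basal minus middle difference changed sign under the alternatives tried. The calls moved as follows. In the basal turn, 1 member was called as reported, 0 with no filter, with only the libraries compared, with library weights and with the replicate block, 2 with an adjusted p under 0.05 and 2 without wild-type middle 1 and wild-type basal 2, a setting chosen after seeing the data. In the middle turn, 0 became 1 with library weights and 3 at 0.05. For the basal minus apical difference of genotype effects, 0 became 1 with an equal sum, 3 at 0.05 and 2 without those 2 libraries. For the basal minus middle difference, 3 became 1 with no filter, 2 with quantile normalization, library weights or without those 2 libraries (Gjb6 lost each time), 2 with the replicate block (Gjb1 lost, adjusted p = 0.0109) and 4 at 0.05. For homozygous basal minus apical turns, 1 became 0 with pseudocounts of 0.1 and 0.01, no filter, quantile normalization, no trend, the replicate block and the random block, 4 at 0.05 and 2 without those 2 libraries. For homozygous basal minus middle turns, 2 became 0 with no filter, 1 with no trend, 1 with the replicate block, 1 with the random block and 4 at 0.05. With each library left out in turn the counts ran from 0 to 1 (middle turn), 0 to 1 (basal turn), 0 to 1 (basal minus apical difference), 1 to 2 (basal minus middle difference), 0 to 2 (homozygous basal minus apical) and 0 to 2 (homozygous basal minus middle). The cause of these moves was not tested, other than the fewer libraries or the larger number of genes adjusted over that a setting brings by construction.

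The ratio of Gjb2 to Gjb6 gave -0.80, -0.84 and -0.50 on the log2 scale without the apical, middle and basal turn, where the exact permutation cannot give p under 0.0556, and -0.88 to -0.54 without 1 library. The share of Gjb2 plus Gjb6 ran from -5.14 to 4.02 percentage points without 1 library and was 12.9 without the basal turn. The sum of the 8 genes ran from 0.07 to 0.27 without 1 library and was -0.081 and -0.052 without the apical and the middle turn. Deviations of same-numbered libraries had no common direction. Their correlation was over 0.1 in 4 of 15 pairs of groups and under -0.1 in 6, between -0.43 and 0.45. Whether replicate numbers stand for the same mice across turns is not given, so this check cannot tell whether turns share mice. For the ratio, any pairing within turns gives the same outcome, since both homozygous values lie below both wild-type ones in each turn, so the replicate block (-0.71 on the log2 scale) adds nothing.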
